A study of Mus musculus with 12 samples.

Results

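The cytosolic ribosomal protein genes of mouse C2C12 myoblasts were followed through proliferation and early differentiation, with and without the compound PFI-3. A gene was taken as a member when its symbol is Rpl or Rps followed by a number, with at most a short suffix, or is Rplp0, Rplp1, Rplp2 or Rpsa. The S6 kinase genes, whose symbols start with Rps6k, were left out. The rule used no measured value and found 82 of the 16288 genes listed in any library: 50 of the large subunit and 32 of the small subunit. Of these, 80 passed the low-count filter, and 12545 genes passed it in all. The 2 that did not pass were Rpl3l and Rpl32l.

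C2C12 is an immortalized mouse myoblast line that fuses into myotubes when serum is withdrawn. RNA was sequenced in 12 libraries, 2 (A and B) in each of 6 groups. All groups came from this line, and the labels name no genetic change. Proliferating cells (GM) were kept in medium with 10% fetal bovine serum. Differentiating cells were moved near confluence to 2% horse serum with 2 ug/ml insulin and harvested 24 h or 48 h later (DM 24h, DM 48h). At each stage, cells received the vehicle DMSO or 50 uM PFI-3, which binds bromodomains of the chromatin-remodelling ATPases BRM and BRG1 and of the related subunit PB1. Exposure began 12 h before harvest of the GM cells or before induction, and the agents were renewed every 24 h in differentiation medium. No untreated cells without DMSO were analysed here. The design addresses whether blocking these bromodomains alters the expression program of muscle differentiation. In bulk RNA of this kind, fewer cells of a type and less RNA per cell cannot be told apart. The labels call the libraries of a group biological duplicates of this line. In the main fit the p-values rest on the spread between duplicates pooled over all 6 groups, not only the groups compared.

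Each cytosolic ribosomal protein occupies a defined place in the large (Rpl) or the small (Rps) subunit, and nearly all are needed in equal numbers. Their mRNAs are short, abundant and stable, and most start with a run of pyrimidines, the 5′ terminal oligopyrimidine (TOP) tract. Through this tract the mTOR pathway and the RNA-binding protein LARP1 set how strongly these mRNAs are translated and how well they are kept. Growing cells spend much of their transcription on ribosomes, and muscle cells leave the cell cycle as they differentiate.

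The windows below show annotated starts of members that moved most, 4 with a pyrimidine run at the start base and 4 without one there. Whether the mRNAs of these cells begin at those bases was not tested. The sites were taken from RefSeq's mouse promoter table (GRCm38.p6), which held 62 of the 82 members. Each window runs from 25 bases before the annotated start to 20 bases from it on, 5′ to 3′ on the gene's strand, and the capitals mark the longest run of C and T in the window. The first 4 carry a C at the start base followed by at least 4 pyrimidines. A second annotated start of Rps21 (chr2:180257424-180257468, + strand), not printed, has no such run at its start base. Rps21 (chr2:180257354-180257398, + strand) had the largest PFI-3 rise at 24 h, Rplp2 (chr7:141447626-141447670, + strand) also rose there, Rpl14 (chr9:120571492-120571536, + strand) had the largest fall at 24 h, and Rps27 (chr3:90213629-90213673, - strand) rose at 48 h. The last 4 have no such run at the annotated start: Rps2 (chr17:24720038-24720082, + strand) and Rplp0 (chr5:115559442-115559486, + strand), with large falls at 48 h, Rpsa (chr9:120127741-120127785, + strand), with a PFI-3 fall in GM, and Rps12 (chr10:23787190-23787234, - strand), with a PFI-3 rise at 24 h.
Rps21: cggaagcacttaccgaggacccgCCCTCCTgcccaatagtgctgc
Rplp2: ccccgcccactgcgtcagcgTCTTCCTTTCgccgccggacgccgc
Rpl14: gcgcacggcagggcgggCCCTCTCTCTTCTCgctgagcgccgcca
Rps27: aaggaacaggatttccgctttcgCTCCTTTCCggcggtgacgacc
Rps2: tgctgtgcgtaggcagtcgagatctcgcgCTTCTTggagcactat
Rplp0: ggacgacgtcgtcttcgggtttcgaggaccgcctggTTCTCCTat
Rpsa: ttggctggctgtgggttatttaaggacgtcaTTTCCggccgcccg
Rps12: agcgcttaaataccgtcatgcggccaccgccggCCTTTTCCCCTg

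A C at the annotated start base followed by 4 pyrimidines was found in 14 of the 62 members (22.6%), against 2.8% of the 9951 tested genes in the table and 3.0% of all 27025 genes in it. A C followed by 7 pyrimidines anywhere in the 45-base window was found in 31 members (50.0%), against 17.7% of tested genes. In the 300-base promoters, searched on both strands, the ETS-type motif CCGGAAG was found in 40.3% of members and 19.8% of tested genes. The YY1-type motif AAGATGG was in 16.1% and 8.3%. The E-box CACGTG was in 9.7% of members against 11.9% of tested genes, and the GC-box core GGGCGG in 61.3% against 69.2%. A gene with several annotated starts was counted when any of them matched. These are matches of letters at annotated starts, and the tests below do not use them.

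As a group the members were among the most abundant mRNAs of the cells. Per length, on the FPKM scale (fragments per kilobase of transcript, set to a common library size), 52 of the 100 genes with the highest mean over the 12 libraries were members. Their median mean FPKM was 766.6, with 76 of 82 at 100 or more and 22 at 1000 or more. The 5 highest were Rps2, which lines the mRNA entry channel, at a mean of 2804.7 FPKM, Rpl41 at 2518.5, Rps26 at 1918.6, Rpl23a at 1830.8 and the stalk protein Rplp0 at 1798.5. The 5 lowest that were tested were Rps15a at 41.7 FPKM, Rpl7l1 at 57.1, Rpl22l1 at 61.2, Rpl22 at 99.1 and Rps27l at 113.3. Rps15a is given a length of 5158 bases in the deposited files and Rps20 one of 3446, against a median of 721 bases for tested members, so their FPKM values rest on those lengths.

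Counts of a few members may be shared with near-identical sequences. Expected counts were whole numbers in every library for 75 members. They were fractional in all 12 libraries for Rplp2, Rpl7l1, Rpl31, Rpl34 and Rpl37, and in 8 for Rps15a, and values of these genes are uncertain to that extent. Ribosomal protein genes also have many processed pseudogenes, whose part in the other counts was not tested.

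Totals of expected counts were 12576374 to 13658352 per library. The 10 myoblast and myotube markers chosen for these cells were all listed, and their summed level in DMSO was 793.1 to 814.7 CPM (counts set to a common, TMM-adjusted library size) in GM, 4112.8 to 4134.4 at 24 h and 19494.8 to 19625.3 at 48 h. With PFI-3 it was 497.4 to 623.0, 2259.5 to 2273.1 and 13385.7 to 13750.5. Summed markers of adipocytes, leukocytes and endothelial cells stayed at or below 21.3, 9.05 and 1.22 CPM. The GM pairs were noisier than the others: the SD of the log2 ratio of library B to A, over the 10656 tested genes averaging 50 counts or more, was 0.333 and 0.301 in GM and 0.138 to 0.151 in the DM groups. In GM DMSO, members were lower in library B by a median of 0.12 on the log2 scale, with 6 of 80 higher in B.

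The members' summed share of all expected counts was lower after induction in DMSO cells, and at 24 h it was higher with PFI-3 than with DMSO. In GM DMSO it was 5.48% in library A and 5.39% in library B. At 24 h it was 4.22% and 4.18%, and at 48 h 4.12% and 4.29%. With PFI-3 it was 5.35% and 5.14% in GM, 4.82% and 4.85% at 24 h, and 4.02% and 4.26% at 48 h. Both PFI-3 libraries at 24 h lay above both DMSO libraries of that time and below all 4 GM libraries, while at 48 h the treatments overlapped. Means were 5.43% ± 0.065 (SD, n = 2), 4.20% ± 0.028 and 4.20% ± 0.118 in DMSO, and 5.24% ± 0.146, 4.84% ± 0.025 and 4.14% ± 0.164 in PFI-3, from GM to 48 h. Large subunit genes went from 3.22% ± 0.043 to 2.49% ± 0.021 between GM and 24 h in DMSO, and small subunit genes from 2.21% ± 0.021 to 1.71% ± 0.007. No test was made on these sums.

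**Figure D1:**
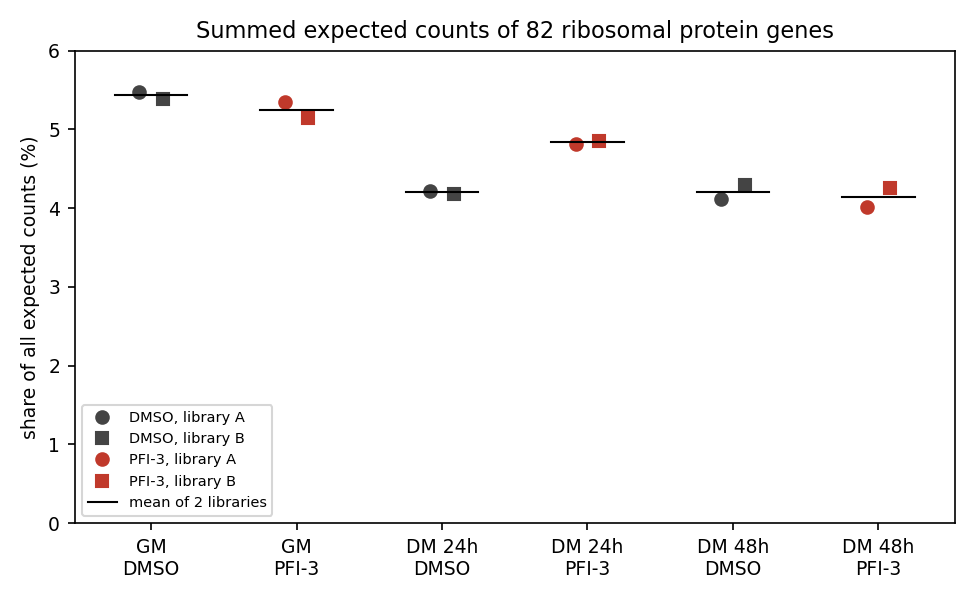
Share of all expected counts (%) held by the 82 ribosomal protein genes, by group on the horizontal axis. Circles are library A, squares library B, grey DMSO, red PFI-3, and lines the mean of 2 libraries. The PFI-3 libraries at DM 24h (4.82% and 4.85%) lie between the GM libraries and the DMSO libraries of the same time (4.22% and 4.18%).

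The first question was what induction does to these genes in vehicle-treated cells. At 24 h, 74 of the 80 tested members were lower than in GM and 0 were higher (edgeR quasi-likelihood test, adjusted p under 0.05, Benjamini-Hochberg over 12545 genes). Over all genes tested, 30.0% were called lower and 30.6% higher, 60.6% in all. DESeq2 also called 74 lower and 0 higher, and 0 members were higher at an unadjusted p under 0.05. The members' median log2 fold change was -0.41, with quartiles of -0.52 and -0.34, against a median of 0.02 and quartiles of -0.39 and 0.51 over all genes tested. The members' median change was -24.9%, and all 80 estimates were below 0. Large and small subunit members had medians of -0.42 and -0.40.

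Rpl14, a large subunit protein, had the largest fall at 24 h. Its CPM was 628.0 and 586.2 in GM DMSO, against 371.9 and 367.8 at 24 h. Both induced libraries lay far below both proliferating ones. It fell by 0.71 on the log2 scale (SE 0.07, edgeR adjusted p = 2.09e-06), a change of -39.1%.

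Rpl8, which sits close to the peptidyl transferase centre, went from 1391.1 and 1262.9 CPM to 831.3 and 839.5. It fell by 0.67 on the log2 scale (SE 0.07, edgeR adjusted p = 4.18e-06). Rps2 fell by 0.62 (adjusted p = 1.96e-06), from 3803.4 and 3651.0 CPM to 2398.8 and 2452.6. No libraries of the compared groups overlapped in any of these.

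The acidic stalk of the large subunit recruits the GTPases that drive translation, and its 3 proteins fell together. Rplp0, the base of the stalk, was at 2955.4 and 3020.2 CPM in GM DMSO and at 1997.3 and 1896.7 at 24 h. Rplp1 went from 844.5 and 784.2 CPM to 558.7 and 534.2, and Rplp2 from 380.9 and 350.0 to 232.4 and 239.2. Their log2 fold changes were -0.62, -0.58 and -0.63, with edgeR adjusted p of 2.94e-06, 5.39e-05 and 3.23e-05. Rpl12, which binds near the stalk base, had a log2 fold change of -0.60.

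Of the 6 members that were not called at 24 h, Rps27, Rps28, Rpl17, Rpl39 and Rpl22l1 are named here after their values were seen. Rps27 was at 260.2 and 211.9 CPM in GM DMSO and at 233.4 and 224.4 at 24 h, inside the GM range. Its log2 fold change was -0.04, with a 95% interval of -0.24 to 0.15. For Rpl22l1, at 32.8 and 22.5 CPM in GM, it was -0.28 (interval -0.71 to 0.14).

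Members are short, with a median length of 721 bases against 2929 over all genes tested, so values are also given by length. Among other tested genes of at most 600 bases the median log2 fold change at 24 h was 0.11, against -0.40 for the 30 members in that band. From 600 to 1000 bases the medians were -0.09 and -0.43. With a trend on gene length removed from each library, the members' median at 24 h was -0.23 in place of -0.41, and 60 members were lower and 0 higher. The median of all genes tested was then 0.06. The trend was fitted with the members among the genes, so it can take up some of their own change. What part of the fall goes with length was not tested.

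**Figure D2:**
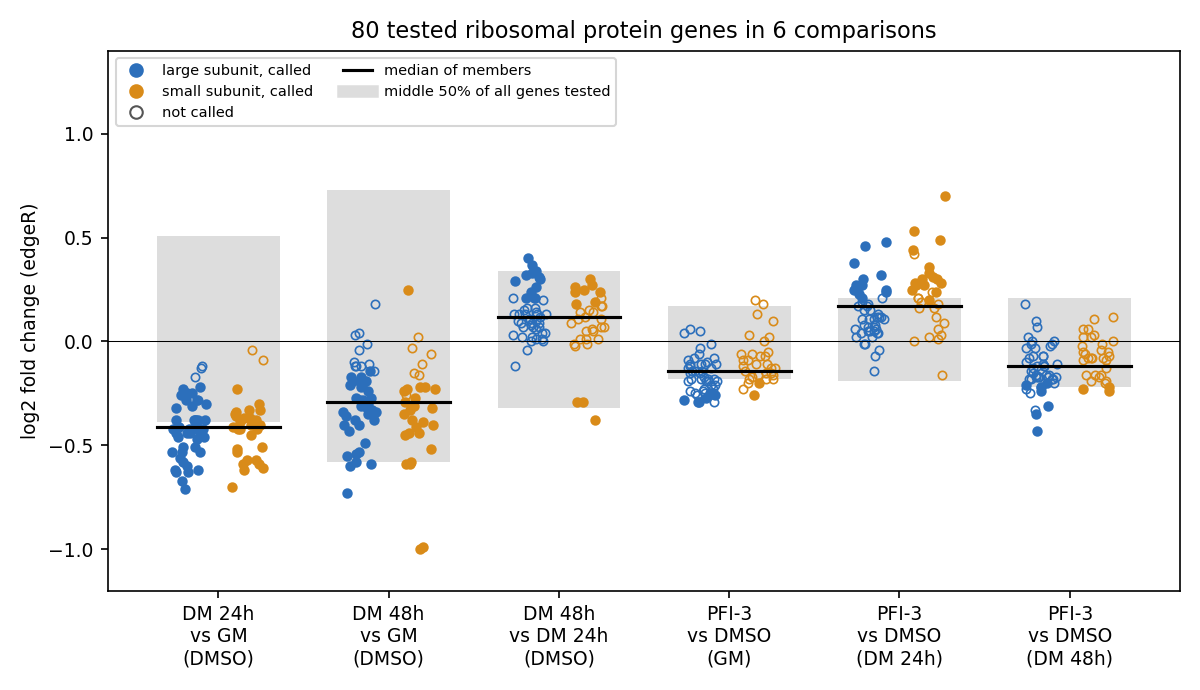
Log2 fold changes from edgeR for the 80 tested members in 6 comparisons, large subunit in blue and small in orange, filled where called. Black lines are members' medians and grey boxes the middle 50% of all genes tested. All 80 members lie below 0 at DM 24h versus GM in DMSO, and 74 lie above 0 for PFI-3 versus DMSO at DM 24h.

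By 48 h of differentiation in DMSO, 60 members were lower than in GM and 1 was higher (edgeR). Of all genes tested, 35.9% were lower and 37.2% higher, 73.1% in all. The members' median log2 fold change was -0.29, against 0.03 over all genes, a median change of -18.1%. This comparison and the one at 24 h share the GM libraries. Under the length correction, 37 were lower and 4 higher, out of 41 called, and the members' median was -0.13, against 0.11 over all genes tested.

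Rps2 and Rps27l had the largest falls at 48 h. Rps2 was at 1849.8 and 1869.7 CPM at 48 h, below its 24 h and GM values in every library. It fell by 1.00 on the log2 scale (SE 0.06, edgeR adjusted p = 1e-08), to 0.5 of the GM level. Rps27l, a paralogue of Rps27 known as a p53 target, went from 71.5 and 71.8 CPM in GM to 46.5 and 41.8 at 24 h and 33.0 and 39.2 at 48 h. It fell by 0.99 (SE 0.09, adjusted p = 9.27e-07).

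Rplp0 was at 1786.0 and 1808.3 CPM at 48 h and fell by 0.73 on the log2 scale (edgeR adjusted p = 2.7e-07). Rpsa, a small subunit protein also known as the laminin receptor, stood at 3143.9 and 3091.8 CPM in GM DMSO, 2576.1 and 2494.0 at 24 h and 2069.6 and 2071.1 at 48 h. Its libraries were ordered by stage without overlap. Its log2 fold change at 48 h was -0.59 (adjusted p = 1.04e-06). Rpl12 and Rpl7l1 had log2 fold changes of -0.59 and -0.60.

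Rps27, a zinc-finger protein of the small subunit, was the member called higher. It was at 283.0 and 279.9 CPM at 48 h, above both GM libraries (260.2 and 211.9). It rose by 0.25 on the log2 scale (SE 0.10, edgeR adjusted p = 0.0327), or 1.19-fold. The call was lost without library B of GM DMSO (0.25 became 0.11, adjusted p = 0.255), without A or B of DM 48h DMSO (adjusted p = 0.118 and 0.0936), without B of DM 24h DMSO (0.0502), and with only the libraries compared (0.0865, or 0.0833 with a replicate block). Over the settings tried, edgeR's adjusted p and those of the other tools ran from 0.00102 to 0.255. Its paralogue Rps27l fell over the same comparison, and the difference between the pair was not tested.

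Between 24 h and 48 h in DMSO, 20 members rose and 3 fell (edgeR), against 24.2% and 23.9% of all genes tested. The share of members that rose was thus near that of all genes, while the share that fell was below it. The members' median was 0.12 on the log2 scale, a median change of 8.4%, and 70 of 80 estimates were above 0. By length, the median was 0.09 for members of at most 600 bases and 0.16 for other tested genes in that band. From 600 to 1000 bases the medians were 0.13 and 0.08, and in each longer band the members' median was also the higher. Under the length correction 21 rose and 3 fell. The largest rises were of Rpl36, Rpl38, Rpl37, Rpl14 and Rpl9, with log2 fold changes of 0.40, 0.37, 0.34, 0.33 and 0.32. Rpl38, known for its role in translating homeobox mRNAs, went from 75.1 and 79.8 CPM to 98.9 and 101.5, back to near its GM values of 112.2 and 93.8. The 3 that fell further were Rps2 (-0.38), Rpsa (-0.29) and Rps27l (-0.29). The number called dropped from 23 to 9 or 11 without library A or B of DM 24h DMSO, and to 8 without library B of DM 48h DMSO. It was 52 when only the libraries compared were fitted.

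**Figure D3:**
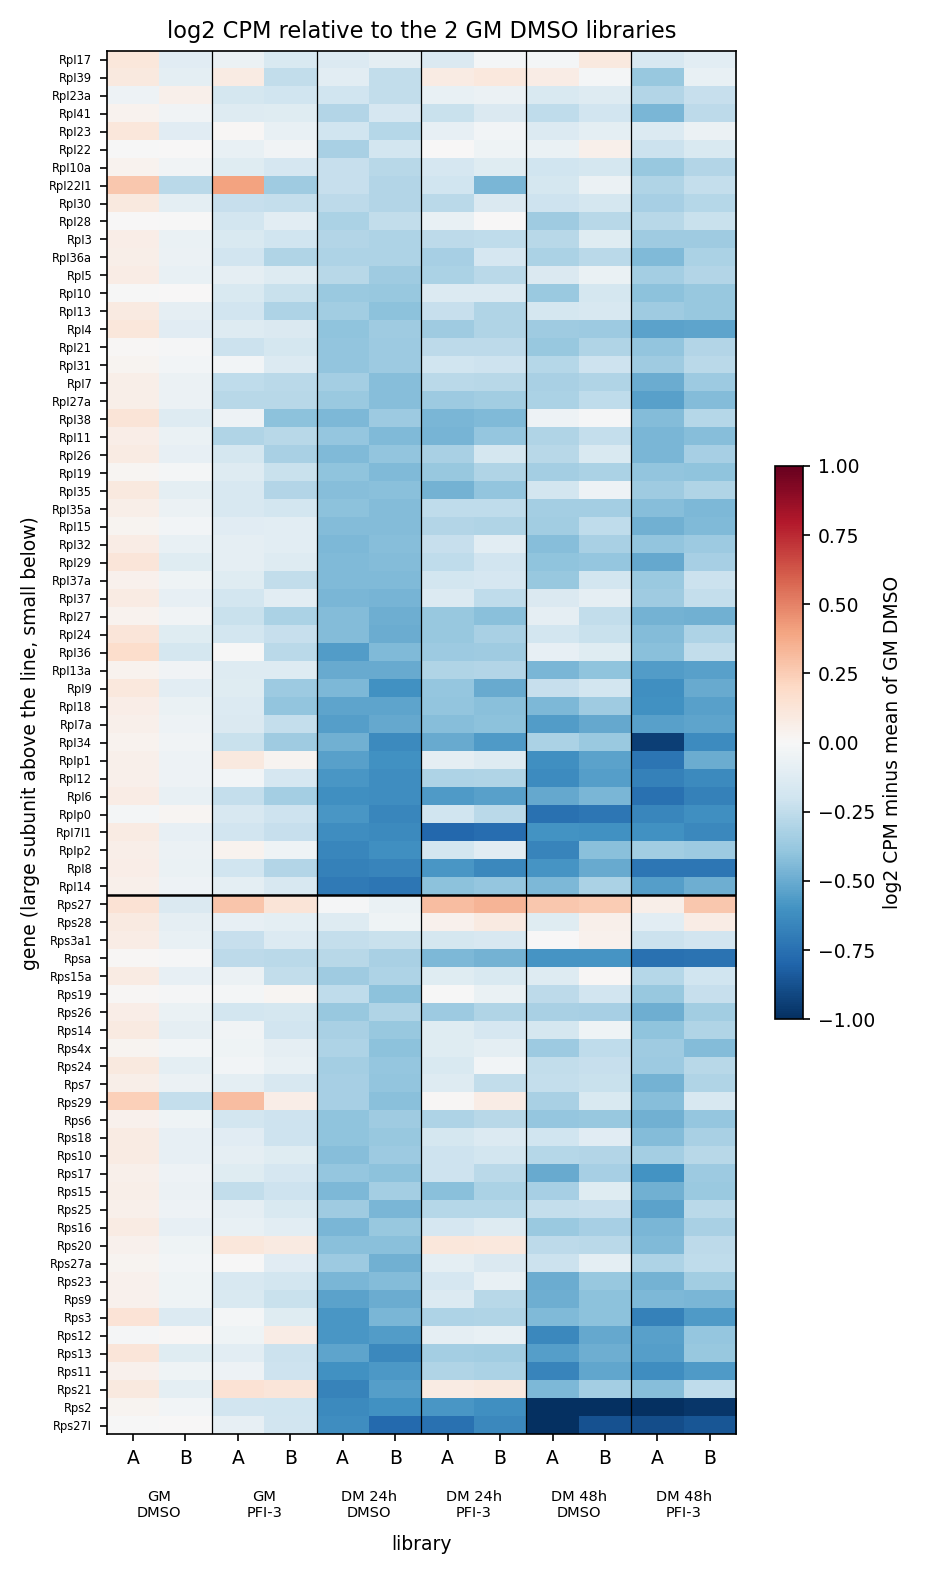
Log2 CPM of 77 of the 80 tested members in each of the 12 libraries, minus the mean of the 2 GM DMSO libraries, with large subunit genes above the line and small below, each sorted by level at DM 24h DMSO. Values beyond 1 in either direction are drawn at the limit of the scale. Blue fills the DM 24h DMSO columns, is paler in the DM 24h PFI-3 columns, and is among the darkest for Rps2 and Rps27l at 48 h.

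In proliferating cells the effect of PFI-3 on the members was small. With PFI-3, 9 members were lower and 0 higher than in DMSO (edgeR), against 6.15% and 5.46% of all genes tested. At an unadjusted p under 0.05, 37 were lower and 0 higher, and DESeq2 called 14 lower and 0 higher. The members' median log2 fold change was -0.14 against -0.01 over all genes, and 70 of 80 estimates were below 0. With scaling by library totals alone, 1 was lower and 1 higher and the median was -0.04, where the median of all genes was 0.08.

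The 9 were Rpl6, Rpl7, Rpl8, Rpl11, Rpl13, Rpl27, Rpl27a, Rpsa and Rps2. Rpl11, which with Rpl5 and the 5S rRNA can bind the p53 regulator Mdm2, was at 646.5 and 589.5 CPM in DMSO and 500.7 and 509.3 in PFI-3. It fell by 0.29 on the log2 scale (SE 0.06, edgeR adjusted p = 0.0147). Rpsa was at 3143.9 and 3091.8 CPM in DMSO and 2603.5 and 2586.6 in PFI-3, and fell by 0.26 (adjusted p = 0.0114). The 2 groups did not overlap for either gene. Rpl6, Rpl27a and Rpl27 had log2 fold changes of -0.29, -0.28 and -0.27.

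The GM count rested on few libraries. It was 35 without library B of GM DMSO, the library in which members were lower than in A. It was 6, with 2 higher and 4 lower, without library A of GM DMSO, 3 without library B of GM PFI-3, and 5 without library A or B of DM 24h PFI-3 or library A of DM 48h DMSO. With only the 4 GM libraries in the edgeR fit it was 0, with 6 lower and 0 higher at an unadjusted p under 0.05. The part of the wide GM spread in these counts was not tested.

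At 24 h of differentiation the members were higher with PFI-3 than with DMSO. Of the 80, 29 rose and 0 fell (edgeR), against 12.2% and 11.4% of all genes tested. At an unadjusted p under 0.05, 42 were higher and 1 lower. DESeq2 called 25 higher and 1 lower. The median log2 fold change was 0.17, against a value that rounds to 0 over all genes, a median change of 12.5%, and 74 of 80 estimates were above 0. With scaling by library totals alone 41 rose and 0 fell. Small subunit members had a median of 0.24 with 16 of 32 called, and large subunit members 0.12 with 13 of 48. The difference between the subunits was not tested.

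Rps21, a small protein on the body of the small subunit, had the largest rise. At 24 h it was at 144.2 and 156.3 CPM in DMSO and at 242.5 and 244.6 in PFI-3. The PFI-3 libraries lay within the range of the GM DMSO libraries (244.8 and 213.4) and the DMSO libraries below it. It rose by 0.70 on the log2 scale (SE 0.08, edgeR adjusted p = 0.000117), or 1.62-fold.

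Rps20, a protein of the head of the small subunit, was at 425.0 and 423.4 CPM in DMSO and at 611.5 and 609.5 in PFI-3, above its GM DMSO values of 584.1 and 549.5. It rose by 0.53 on the log2 scale (SE 0.07, edgeR adjusted p = 0.000203). Rps12, of the beak of the small subunit, was at 453.9 and 461.8 CPM in DMSO and at 638.7 and 646.3 in PFI-3, and rose by 0.49 (adjusted p = 0.000528). For both genes, PFI-3 and DMSO libraries were far apart and replicates close.

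The 3 stalk proteins also rose with PFI-3. Rplp2 was at 232.4 and 239.2 CPM in DMSO and 322.1 and 337.5 in PFI-3, Rplp1 at 558.7 and 534.2 against 764.6 and 743.6, and Rplp0 at 1997.3 and 1896.7 against 2597.1 and 2478.4. Their log2 fold changes were 0.48, 0.46 and 0.38, with edgeR adjusted p of 0.00137, 0.00146 and 0.000805. In all 3, both PFI-3 libraries lay above both DMSO libraries of that time. Rps27 also rose, by 0.36.

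Rps2 and Rpl11 had overlapping libraries in the 2 treatments at 24 h. Rps2 was at 2398.8 and 2452.6 CPM in DMSO and 2491.1 and 2433.5 in PFI-3. Its log2 fold change was 0.02, with a 95% interval of -0.09 to 0.13. Rpl11 had 472.7 and 455.4 CPM against 447.0 and 472.6, with a value of -0.01 (interval -0.14 to 0.11). Rpsa was lower in both PFI-3 libraries, at 2576.1 and 2494.0 against 2288.7 and 2243.2, without overlap. Its log2 fold change of -0.16 was the lowest among members, with an interval of -0.27 to -0.05 that excludes 0 and an edgeR adjusted p of 0.0534, so that it was not called.

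**Figure D4:**
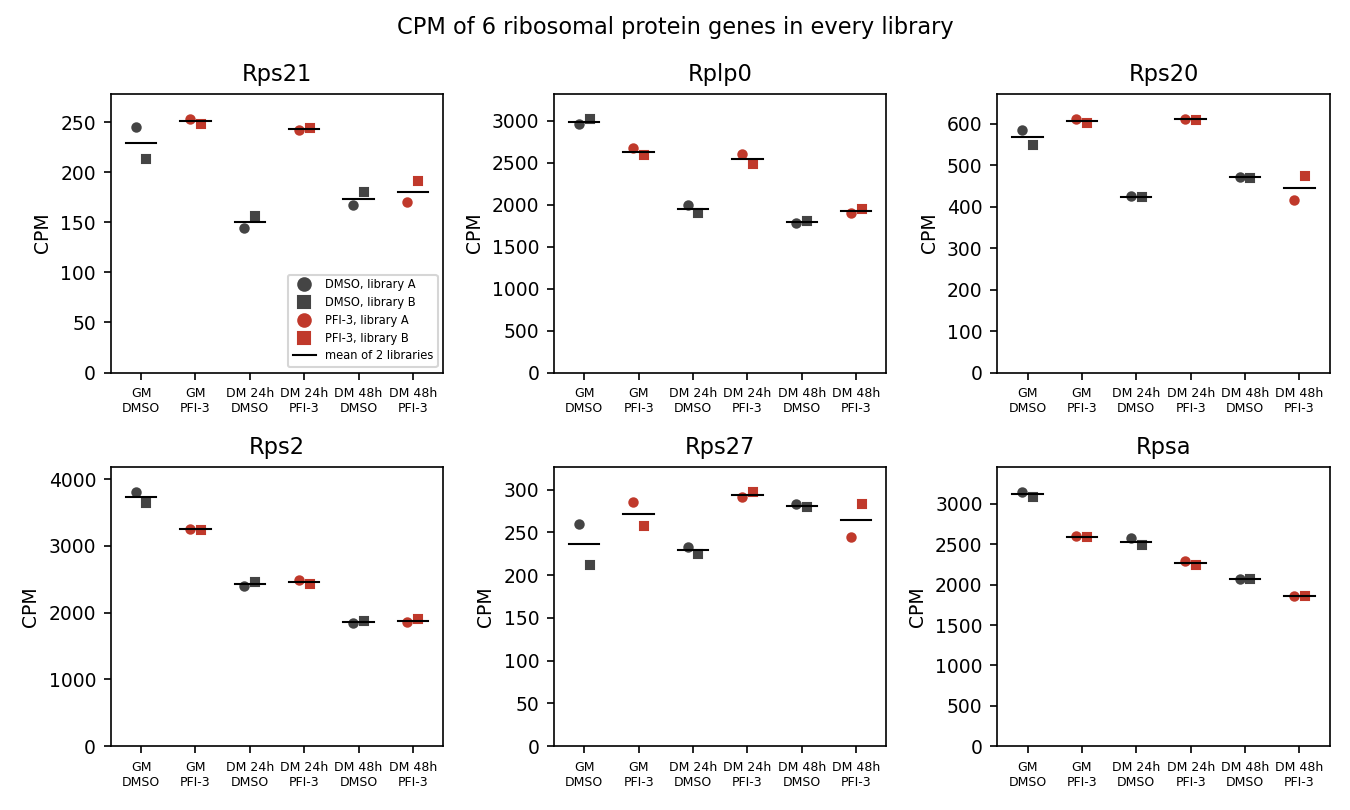
CPM of Rps21, Rplp0, Rps20, Rps2, Rps27 and Rpsa in each library, by group; circles are library A, squares library B, grey DMSO, red PFI-3, lines the mean of 2, and each axis starts at 0. Rps21 and Rps20 with PFI-3 at DM 24h stand near their GM levels, while Rps2 and Rpsa step down with time in both treatments.

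The 24 h count depended on each library compared. It was 12 or 11 without library A or B of DM 24h DMSO and 12 without either library of DM 24h PFI-3, while the members' median stayed at 0.17 in all 4. With only those 4 libraries fitted, 55 were higher and 2 lower. The myoblast and myotube markers differed beside this result. Their summed level was lower in PFI-3, at 2259.5 to 2273.1 CPM against 4112.8 to 4134.4, as it was at the other stages. In GM the sum hides a split among the 10 markers: 5 estimates were above 0 and 5 below, with a median of 0.28. There 2 markers were called lower and 0 higher, against 6.15% and 5.46% of all genes tested. Of the adipocyte markers, Cebpa was the 1 that could be tested, and it rose by 0.83 on the log2 scale with PFI-3 at 24 h (edgeR adjusted p = 0.044). Their summed level was 18.0 and 21.3 CPM against 11.3 and 10.8. The part of either marker list in the result was not tested.

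At 48 h, 10 members were lower with PFI-3 and 0 higher (edgeR), against 14.0% and 13.4% of all genes tested, so the share lower (12.5%) was near that of all genes. At an unadjusted p under 0.05, 27 were lower and 1 higher, and DESeq2 called 12 lower and 0 higher. The median log2 fold change was -0.12 against 0.00 over all genes. Among other tested genes of at most 600 bases it was -0.10, against -0.09 for the members in that band. From 600 to 1000 bases the medians were -0.10 and -0.13. With scaling by library totals 3 were lower and 2 higher, with a members' median of -0.04 and an all-gene median of 0.09. Under the length correction 8 were lower and 2 higher.

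Rpl34 was at 196.2 and 189.0 CPM in DMSO and 127.4 and 158.6 in PFI-3 at 48 h, with no overlap but a wide PFI-3 pair. It fell by 0.43 on the log2 scale (SE 0.10, edgeR adjusted p = 0.00598), and its counts are among the fractional ones. Rpl9 was at 416.9 and 430.0 CPM against 319.6 and 344.5 and fell by 0.35 (adjusted p = 0.0187). Rpl27 was at 331.9 and 298.2 against 255.5 and 254.0 and fell by 0.31 (adjusted p = 0.00565). Rps14, known for its loss in a form of myelodysplasia, fell by 0.24.

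The 48 h count moved with nearly every library. It was 28 and 26 without library A and B of GM DMSO, 17 without either of GM PFI-3, 6 without either of DM 24h DMSO, and 5 without either of DM 24h PFI-3. It was 1 and 3 (1 higher, 2 lower) without A and B of DM 48h DMSO, and 1 and 5 without A and B of DM 48h PFI-3. The members lower with PFI-3 both in GM and at 48 h were Rpl6, Rpl27 and Rpl27a.

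In PFI-3 cells, induction was compared with PFI-3 GM cells. At 24 h, 20 members were lower and 0 higher (edgeR), against 28.2% and 32.1% of all genes tested (60.3% in all), with a median of -0.09. No member was higher at an unadjusted p under 0.05, and DESeq2 called 23 lower and 0 higher. Under the length correction 6 were lower and 4 higher. The count was 28 without either library of GM DMSO, 11 without A of GM PFI-3, and 9 and 8 without A and B of DM 24h PFI-3. Among these, 1 member was higher without either library of GM DMSO or without A of GM PFI-3.

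At 48 h in PFI-3 cells, 56 were lower and 0 higher against 32.9% and 34.4% of all genes (67.2% in all), with a median of -0.24. None was higher at an unadjusted p under 0.05, and DESeq2 called 53 lower and 0 higher. Under the length correction 25 were lower and 2 higher, and without A of DM 48h PFI-3 the count was 32. Between 24 h and 48 h, 26 fell and 0 rose, against 14.2% and 13.1%, with a median of -0.16 (DESeq2, 17 and 0, and at an unadjusted p under 0.05 43 and 0). For this step the length correction gave 13 lower and 1 higher, and only the libraries compared 44 and 2. It was 39 without either library of GM DMSO, 13 and 11 without A and B of DM 24h PFI-3, and 11 without A of DM 48h PFI-3. Rplp1 had the largest fall in this last step, by 0.50 on the log2 scale, from 764.6 and 743.6 CPM to 491.7 and 577.2 (adjusted p = 0.000595).

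The difference in the response to induction was tested by interaction contrasts in the same edgeR fit. For 24 h against GM, 14 members had a higher PFI-3 effect at 24 h and 0 a lower one, against 1.78% and 1.59% of all genes tested (3.37% in all). The members' median difference was 0.31 on the log2 scale, against 0.02 over all genes, and 79 of 80 were above 0. At an unadjusted p under 0.05, 61 were higher and 0 lower, and DESeq2 called 19 and 0. Rps21 and Rplp0 each had a difference of 0.57 (SE 0.12 and 0.08, adjusted p = 0.0251 and 0.00472). Rps23, in the decoding centre, had 0.50, and Rps9, at the mRNA entry, and Rplp2 had 0.49.

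That count was 51 without library B of GM DMSO, 8 without either library of DM 48h DMSO, and 7 and 6 without A and B of DM 48h PFI-3. It was 1 without either library of DM 24h DMSO, and 1 and 2 without A and B of DM 24h PFI-3. The lowest median in any of these settings was 0.26 with 1 library left out, and 0.23 under the length correction, where 7 were called.

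For 48 h against 24 h, the PFI-3 effect was lower at 48 h in 22 members and higher in 0, against 4.97% and 7.12% of all genes tested. The median difference was -0.28 against a value that rounds to 0 over all genes. At an unadjusted p under 0.05, 54 were lower and 0 higher, and DESeq2 called 19 and 0. Rps21 had a difference of -0.64 (SE 0.12, edgeR adjusted p = 0.00414) and Rps20 of -0.61 (SE 0.10, adjusted p = 0.00144). Rplp1 had -0.50. The count was 51 and 49 without A and B of GM DMSO, 39 without either of GM PFI-3, 8 and 7 without A and B of DM 24h DMSO, 7 and 8 without A and B of DM 24h PFI-3, 5 without A of DM 48h PFI-3 and 6 without B of DM 48h DMSO. For 48 h against GM, 1 member was called, Rplp0 with a difference of 0.28 (adjusted p = 0.0415), against 8.25% of all genes higher and 6.29% lower, and the call was lost under several settings. Without A of GM DMSO 1 was higher and 3 lower, and without B 5 were higher. The median, 0.03, ran from -0.04 to 0.08 over the settings tried.

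Paralogues can replace a ribosomal protein in some tissues. Rpl22 was at 223.4 and 223.5 CPM in GM DMSO and 178.6 and 196.5 at 24 h, and fell by 0.25 on the log2 scale (edgeR adjusted p = 0.00657). It rose with PFI-3 at 24 h by 0.23 (adjusted p = 0.0282), while its paralogue Rpl22l1 was not called in any of the 6 main comparisons. Rpl7 fell by 0.38 and Rpl7l1, a factor related to it, by 0.63 at 24 h. Rpl3 fell by 0.30. Its muscle-restricted paralogue Rpl3l was listed with 8 and 5 counts at 48 h in DMSO and 1 and 2 in PFI-3, with 1 count in DM 24h PFI-3 library B and 0 in the other libraries, too few to test. Rpl36a and its paralogue Rpl36al fell by 0.31 and 0.42 at 24 h. The symbols of the paralogues Rpl10l, Rpl26l1, Rpl39l and Rps4l were not among the genes listed in any library, so these were not tested.

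Ribosomal proteins whose symbols fall outside the rule were 5 in number. At 24 h in DMSO, 3 were lower and 1 higher, against 30.0% and 30.6% of all genes tested. Fau, which encodes Rps30 fused to a ubiquitin-like protein, had a log2 fold change of -0.34, Rack1 of -0.40 and Rpl36al of -0.42. With PFI-3 at 24 h, 2 of the 5 were called higher and 0 lower, against 12.2% and 11.4% of all genes tested. Of the 5 estimates 3 were above 0 and 2 below, with a median of 0.19. Fau rose by 0.34 (edgeR adjusted p = 0.00569).

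Genes that build ribosomes had lower medians on induction than the proteins of the ribosome itself. Of 80 ribosome biogenesis factors, 71 were lower and 1 higher at 24 h, and 70 and 1 at 48 h. Their medians were -0.85 and -1.05 on the log2 scale. Over all genes tested, 30.0% were lower and 30.6% higher at 24 h, and 35.9% and 37.2% at 48 h. The members' medians for the same comparisons were -0.41 and -0.29. Lyar, a nucleolar growth factor, fell by 2.61 at 48 h (SE 0.17, edgeR adjusted p = 3.63e-08), Dkc1, the pseudouridine synthase, by 2.18, Nop56, of the box C/D particle, by 2.08, and Grwd1 by 2.02. Of 15 genes of RNA polymerase I and its factors, 13 were lower at each time, such as Polr1b, which fell by 1.35 at 24 h. The medians of both lists on induction were below 0 under all settings tried.

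With PFI-3 at 24 h, the biogenesis factors and the members had medians of opposite sign. There, 15 of 80 factors were lower, against 11.4% of all genes tested, with a median of -0.25, while the members' median was 0.17. Dkc1 fell by 0.70 (edgeR adjusted p = 0.0167) and Nop56 by 0.64 (adjusted p = 0.0198). The 24 h count was 35 without either library of GM DMSO, 2 and 3 without A and B of DM 24h DMSO, and 2 without either of DM 24h PFI-3, while the median stayed between -0.27 and -0.23. With only the libraries compared, 51 were lower and 1 higher.

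In GM 7 factors were lower with PFI-3 (median -0.23), against 6.15% of all genes tested. Without A of GM DMSO 0 were lower and 1 higher, with a median of -0.03, and without B 56 were lower, with a median of -0.39. The count was 20 without A of GM PFI-3 (median -0.36), 0 without B (median -0.10), and 4 without either library of DM 24h DMSO, DM 48h DMSO or DM 48h PFI-3. At 48 h 1 was lower and 1 higher (median 0.05), against 14.0% and 13.4% of all genes tested, with 0 to 11 called when 1 library was left out. The difference between the lists was not tested.

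Translation factors varied more. Of 39 initiation factors, 27 were lower at 24 h in DMSO, with a median of -0.49, and at 48 h 28 were lower and 4 higher, with a median of -0.42. These are 69.2% lower at 24 h, and 71.8% lower and 10.3% higher at 48 h. All genes tested had 30.0% lower at 24 h, and 35.9% lower and 37.2% higher at 48 h. Pabpc1, the poly(A)-binding protein, fell by 1.19 at 48 h and Eif4a1, the initiation helicase, by 1.12. With PFI-3 at 24 h, 7 were lower and 2 higher, against 11.4% and 12.2% of all genes tested, with a median of -0.13. Of 9 tested elongation factors, 7 were lower at 24 h in DMSO (77.8%, median -0.34), against 30.0% of all genes tested. Under PFI-3 at that time 3 were higher and 2 lower (33.3% and 22.2%, median 0.10), against 12.2% and 11.4% of all genes. Eef1a1, which brings aminoacyl-tRNA to the ribosome and carries a TOP tract, rose by 0.23 with PFI-3 at 24 h (edgeR adjusted p = 0.0148), while Eif5a fell by 0.32 (adjusted p = 0.00559). Eef1a1 was named after its values were seen.

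The 17 other genes with known TOP mRNAs overlap these lists. At 24 h in DMSO 12 were lower (70.6%), against 30.0% of all genes tested, with a median of -0.34. By 48 h 7 were lower and 3 higher (41.2% and 17.6%), against 35.9% and 37.2% of all genes. The share lower at 48 h was thus near that of all genes. The 48 h median was -0.05, ranging from -0.13 to 0.05 over the settings tried. With PFI-3 at 24 h 6 were higher, against 12.2% of all genes tested, with a median of 0.12, beside the members' median of 0.17. Npm1, a nucleolar chaperone in this list, fell by 1.16 at 24 h in DMSO and had a log2 fold change of -0.21 with PFI-3. Tpt1, the translationally controlled tumor protein, rose by 0.48 with PFI-3 at 24 h (edgeR adjusted p = 0.000812), and was named after its values were seen.

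Proteins of the mitochondrial ribosome are made in the cytosol from other genes. Of 78, 51 were lower and 2 higher at 24 h in DMSO, with a median of -0.36, and 47 and 5 at 48 h, with a median of -0.32. These are 65.4% and 2.6% at 24 h, and 60.3% and 6.4% at 48 h. All genes tested had 30.0% lower and 30.6% higher at 24 h, and 35.9% and 37.2% at 48 h. Mrps6 fell by 1.61 at 48 h and Mrpl12 by 0.96 at 24 h. With PFI-3 at 24 h, 4 were higher and 3 lower (median -0.07), against 12.2% and 11.4% of all genes tested. The PFI-3 counts at 24 h also moved with single libraries in these lists: with 1 left out, the mitochondrial list had 0 to 14 called, the initiation factors 2 to 13, the elongation factors 0 to 6 and the other TOP mRNAs 4 to 10. Their lowest counts came without a DM 24h library, while the medians of the 4 lists kept their signs.

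Of 31 tested regulators in the mTOR, LARP1, S6 kinase and MYC pathways, 13 were higher and 10 lower at 24 h in DMSO. These are 41.9% and 32.3%, against 30.6% and 30.0% of all genes tested. Myc, the transcription factor that drives ribosome genes, fell by 1.24 (edgeR adjusted p = 7.85e-05) and Larp1 by 0.66 (adjusted p = 0.000761), both named after their values were seen. Mycl rose by 3.91, Mxd4, a repressor of the MYC network, by 2.82 and Ddit4, an inhibitor of mTOR, by 2.24. With PFI-3 at 24 h, 3 were higher and 5 lower (9.7% and 16.1%), against 12.2% and 11.4% of all genes tested. Ddit4 rose by 0.57 (adjusted p = 0.00624), Mxd4 rose by 0.50, Mycl fell by 0.32, and Myc had a log2 fold change of -0.27 (adjusted p = 0.323).

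**Figure D5:**
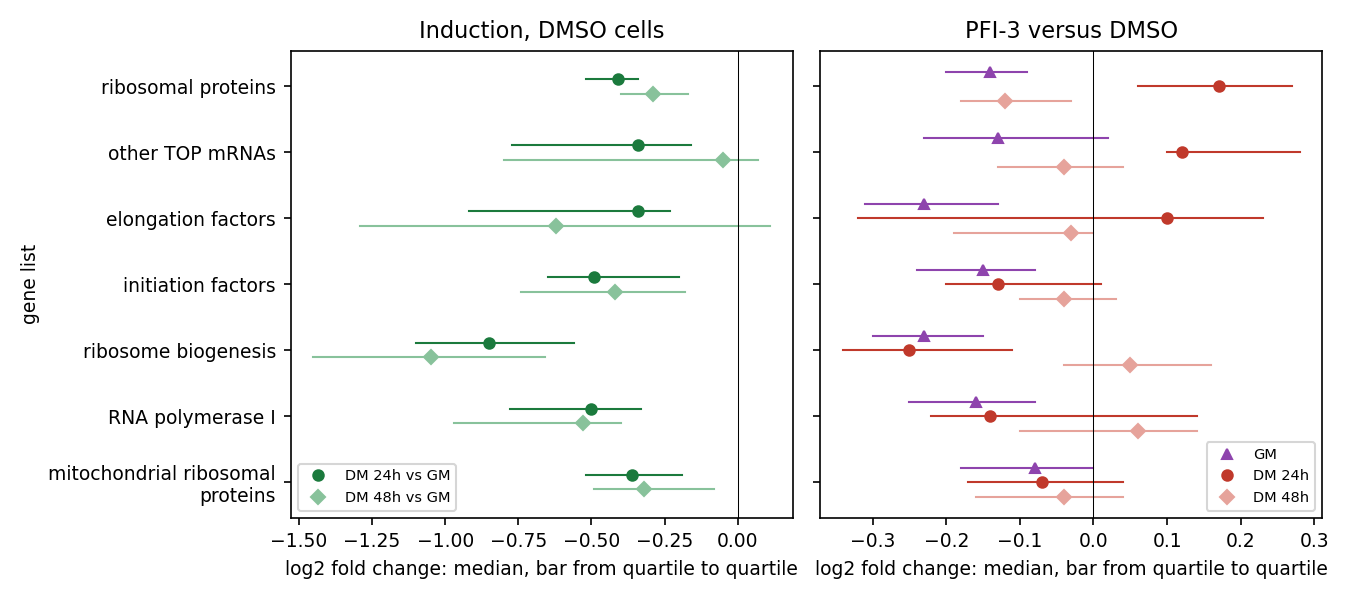
Median log2 fold change of each gene list, with bars from the lower to the upper quartile, for induction in DMSO cells (left) and PFI-3 versus DMSO at each stage (right). At DM 24h with PFI-3 the ribosomal proteins (median 0.17) and other TOP mRNAs (0.12) lie above 0 and the ribosome biogenesis factors (-0.25) below.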

How the data were processed

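Each of the 12 deposited tables gives expected counts and FPKM per gene, per the file headers. The submitters' processing notes name HISAT, StringTie, Cufflinks, Bowtie, RSEM, DESeq2 and build mm10, without roles or versions. Replicates were not pooled, and 0 columns were left unmapped. A gene missing from a table was taken as 0.

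Expected counts were rounded and tested with edgeR 4.0.16 (R 4.3.3): TMM scaling, filterByExpr, quasi-likelihood F-test, 6 groups in 1 fit of 12 libraries, and Benjamini-Hochberg adjustment over 12545 genes, called at an adjusted p under 0.05. SEs were derived from the F statistics. The 95% intervals are normal approximations from these SEs, not adjusted for the number of genes, and are narrower than the F-test would give. CPM uses TMM-adjusted totals, and FPKM is used for levels between genes. Totals of 12576374 to 13658352 set the depth. Tables and figures used Python 3.11.15 and matplotlib 3.10.9. The tests were tested on simulated data.

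Alternatives were DESeq2 1.42.0 (test and size factors), library totals, other filters, limma 3.58.1 on log2(FPKM + 1) and log2(FPKM + 0.1), a gene-length correction, a replicate block, only the libraries compared, and leaving out each library. Only the libraries compared with a block was chosen after seeing the data.

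Members, lists and tests were chosen with earlier results of these data known. Named genes were paralogues, stalk proteins and Rpsa, the 5 highest and 5 lowest by FPKM, up to 5 rises and 5 falls per main comparison (called, averaging 5 CPM or more, A and B pairs of like sign), the 5 largest per interaction, and up to 4 genes of each other list. Of the snoRNA host genes on a further list, 1 was in the files and 0 were tested. Values of a few genes are not reported here, and the plot of members by library leaves them out.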

Additional observations from a re-analysis of the deposited data

Results flagged for a closer look

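The effect of PFI-3 on the ribosomal protein genes differed between stages, by interaction contrasts in the edgeR fit (adjusted p under 0.05 over all genes tested). Between GM and 24 h it differed for 14 of 80 members, each with a higher PFI-3 effect at 24 h, against 3.37% of all genes tested. On the log2 scale the difference was 0.57 for Rps21 and Rplp0, 0.50 for Rps23, and 0.49 for Rps9 and Rplp2. Between 24 h and 48 h it differed for 22 members, each with a lower PFI-3 effect at 48 h, against 12.1% of all genes tested. There the difference was -0.64 for Rps21, -0.61 for Rps20, and -0.50 for Rplp1. Between GM and 48 h it differed for 1 member, Rplp0, by 0.28, against 14.5% of all genes tested. This call was lost with library totals, limma, the replicate block with or without the length correction, or only the libraries compared. It was also lost with library B of GM PFI-3 or any 1 of the 8 DM libraries left out. The 2 contrasts that involve 24 h share those libraries.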

How the results depend on the processing

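Numbers are ribosomal protein genes called of 80. DMSO DM 24h versus GM (74) ranged over 69 to 77 with 1 library left out, and stayed within 1.5 times 74 under every setting tried. DMSO DM 48h versus GM (61) was 40 under the length correction with replicate block, 39 in only the libraries compared with a replicate block, and 45 to 69 with 1 library left out. DMSO DM 48h versus DM 24h (23) was 52 in only the libraries compared, 46 with a replicate block added, and 8 to 30 with 1 left out. PFI-3 in GM (9) was 2 with library totals, 14 with DESeq2, 1 and 0 with limma (pseudocount 1 and 0.1), 5 under the length correction, 0 in only the libraries compared, with or without a block, and 3 to 35 with 1 left out. PFI-3 at 24 h (29) was 57 in only the libraries compared, 58 with a block added, and 11 to 41. PFI-3 at 48 h (10) was 5 with library totals, 5 and 3 with limma, 44 in only the libraries compared, 47 with a block added, and 1 to 28. The 24 h against GM interaction (14) was 7 with library totals, 9 with limma (pseudocount 0.1), 7 under the length correction, 5 with length correction and block, 1 in only the libraries compared, 0 with a block added, and 1 to 51. The 48 h against GM interaction (1) was 0 with library totals, both limma fits, the replicate block, the length correction with block and only the libraries compared with or without block, and 0 to 5. The 48 h against 24 h interaction (22) was 70 in only the libraries compared with or without a block, 14 under the length correction, 11 with a block added, and 5 to 51. Zero counts here come from edgeR or limma; at an unadjusted p under 0.05 the GM comparison had 6 members in only the libraries compared, 10 with a block added, and 12 with limma. The cause of these moves was not tested.

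What the letters A and B share across groups is not given in the sources used here: over 10656 genes, same-letter deviations correlated at 0.504 between the GM groups and between -0.044 and 0.047 in the other comparisons. With the replicate block over all 12 libraries the counts were 74, 60, 23, 8, 28 and 11 for the 6 main comparisons, and 12, 0 and 22 for the interactions. The members' median changed sign over the settings in the 48 h against GM interaction (-0.04 to 0.08) and in none of the other 8 comparisons listed above, and the 45 values of named members kept their sign. Of 45 values of named members, between 0 and 12 lost their call per setting. Depth limits Rpl3l and Rpl32l, and precision rests on 2 libraries a group.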
